A study of Mus musculus with 17 samples.

Results

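Conventional type 1 and type 2 dendritic cells (cDC1s and cDC2s) were compared after 6 h in medium of live TC-1 WT cells, with 3 samples of each subset, 6 of the 17 samples of the series. The other 11 samples had met debris of dying TC-1 cells and served here only to ask whether a subset difference depended on the medium. All cells came from spleens of 8-week-old female C57BL/6JRj mice that carried a B16 melanoma secreting FLT3 ligand for 10 to 14 days, which expands cDCs, and spleens of at least 2 mice were pooled. CD11c+ cells were enriched on magnetic beads, cultured with the TC-1 medium and then sorted from an MHC-II+CD11c+ gate, cDC1s as XCR1+CD8α+ and cDC2s as SIRPα+CD11b+ cells. TC-1 is a C57BL/6-derived lung epithelial line that expresses HPV16 E6 and E7 and H-ras. The WT cells had been given cumate for 24 h, as the inducible BimS and RIPK3 lines had, so the cells called WT here had also met the inducer. The methods refer these cultures to an earlier protocol in which GM-CSF was added to keep the CD11c+ cells alive. The state of both subsets is thus that of cells from tumor-bearing mice, expanded by FLT3 ligand and kept 6 h in culture, with GM-CSF where that protocol was followed, and not that of cells taken directly from a healthy spleen. The labels do not say whether the replicates of a subset were separate cultures or pools, so p-values measure the spread between these samples only.

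cDC1s and cDC2s both arise from a common precursor under FLT3 signaling and carry captured antigen to T cells. cDC1s depend on IRF8 and BATF3 and sense dead cells through CLEC9A. They present antigens of dead cells on MHC class I to CD8+ T cells, a process called cross-presentation. cDC2s are more diverse, depend on IRF4, ZEB2 or NOTCH2 and KLF4 for different fractions, carry many lectin and Fc receptors and chiefly present antigen on MHC class II to CD4+ T cells.

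The subsets differed in a large part of the transcriptome. Of 20262 genes counted above 0 in 50% or more of the 6 samples, 8357 (41.2%) were called at an adjusted p under 0.05 by the quasi-likelihood test of edgeR. Of these, 4121 (20.3% of all genes) had the higher level in cDC1s and 4236 (20.9%) in cDC2s. The estimate of a called gene was over 2-fold for 2098 genes (10.4%) with the higher level in cDC1s and for 1643 genes (8.11%) with the higher level in cDC2s. A test against a 2-fold change itself, in place of no change, called 1209 and 997 genes. The levels of the 2 subsets did not overlap between any samples for 50.7% of the genes tested. The median log2 fold change over all genes, here always cDC1 over cDC2, was 0.020, and the median of its absolute size was 0.573. The direction of small differences depended on the scaling: on log2 counts without any normalization, 5151 calls fell on the cDC1 side and 2852 on the cDC2 side, as the median over all genes then moved to 0.169. Of the genes named below as higher in cDC2s, H2-D1, B2m, Icosl, Ifih1, Ripk1, Sec22b, Cxcl10, Tlr6, Mcl1, Pcna and Rrm1 were not called on that scale. Among the called genes the estimate was over 8-fold for 537 higher in cDC1s and 522 higher in cDC2s, of which 138 and 137 reached 10 CPM in the higher subset, so that much of the extreme fold change sat in genes of low level.

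**Figure D1:**
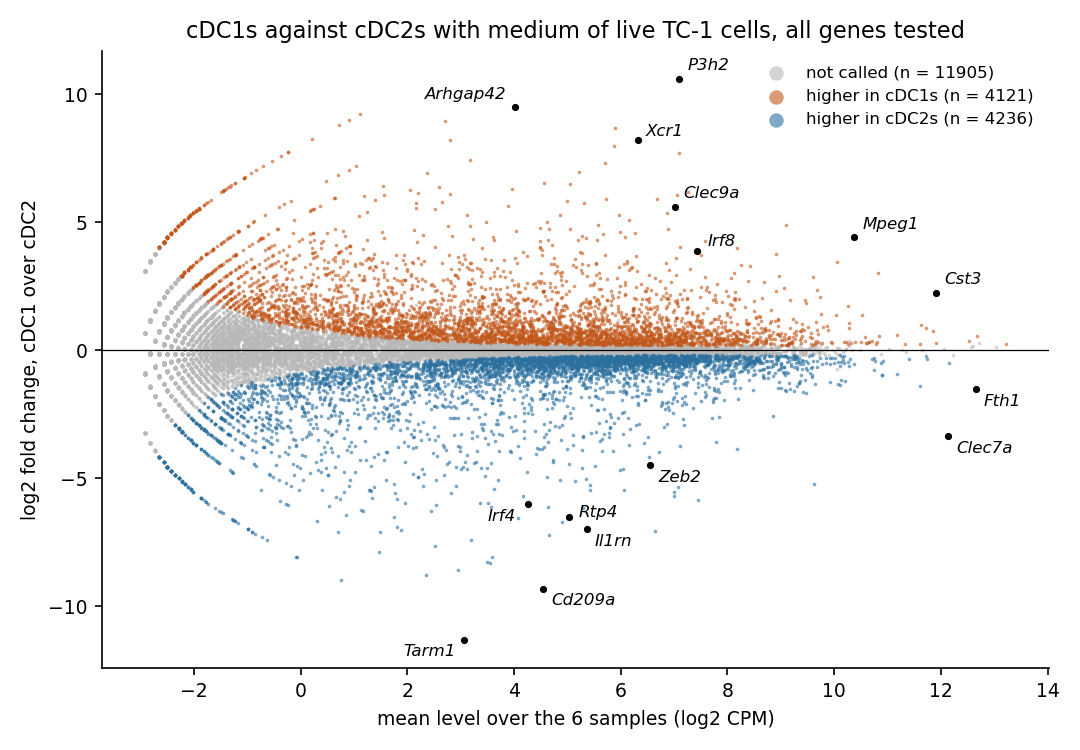
Each point is 1 of the 20262 genes tested, with its mean level over the 6 samples (log2 CPM) on the x axis and the log2 fold change of cDC1s over cDC2s on the y axis. Orange points are the 4121 genes called higher in cDC1s, blue points the 4236 called higher in cDC2s and grey points those not called, and the labelled genes run from P3h2 at the top to Tarm1 at the bottom, whose fitted values rest on a few counts in cDC2s and on 0 counts in cDC1s.

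Libraries held between 16792907 and 21410901 counts, and no replicate was a copy of another. Replicates of cDC1s were close, with a biological coefficient of variation of 4.08% against 11.4% in cDC2s. Each sample was set against the mean of the other 2 of its subset. The deviations were widest in cDC2 replicate 3 (SD 0.258 in log2), with cDC2 replicate 1 next (SD 0.225). In replicate 3 a gene's deviation fell with its exon length (Spearman rho across 8118 genes -0.509, against 0.473 and 0.214 in cDC2 replicates 1 and 2). Opposite signs are in part built into such deviations, and this was a description across genes of libraries that share a source. Without cDC2 replicate 3, 8779 genes were called, and a correction for exon length, chosen after seeing the data, gave 8801. CPM is not scaled by gene length, so levels below are compared between samples of a gene and not between genes.

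The genes behind the sort followed the labels, as the gate itself would make them do. Xcr1, the chemokine receptor that marks cDC1s, read 154, 157 and 165 CPM in the cDC1 samples and 0.484, 0.592 and 0.502 CPM in the cDC2 samples. Cd8a, the CD8α chain, read 12.8, 12.9 and 13.7 CPM in cDC1s and 0.646, 0.414 and 0.669 CPM in cDC2s. Sirpa, an inhibitory receptor for CD47, showed the reverse, with 1.93, 1.12 and 1.44 CPM in cDC1s and 182, 200.2 and 213 CPM in cDC2s, as did Itgam, the integrin chain CD11b, with 0.937, 0.639 and 0.558 and 45.8, 55.6 and 46.1 CPM. The gate genes shared by both subsets differed by less than 2-fold, with Itgax, the integrin chain CD11c, at 138 ± 10.5 CPM against 108 ± 15.4 CPM (mean ± SD, n = 3; cDC1s against cDC2s). The MHC class II chain H2-Ab1, named after its value was seen, was at 7369.5 ± 462 against 6091 ± 1107 CPM.

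Beyond the gate, all 20 cDC1 markers listed were higher in cDC1s, with a median log2 fold change of 4.67 (4.04 with the members near 0 in cDC2s set to the level of 3 counts), against 0.020 over all genes. This list, like the others, was chosen with earlier results of these data known. Clec9a, the receptor for exposed actin of dead cells, read 240.2, 252 and 262 CPM in cDC1s and 5.22, 5.62 and 4.46 CPM in cDC2s. The log2 fold change (log2FC) was 5.62 ± 0.107 (± SE) with an adjusted p of 1.71e-22. Itgae, the integrin chain CD103, read 50.8, 44.3 and 42.6 CPM in cDC1s and 0.323, 0.770 and 0.390 CPM in cDC2s. Cadm1, an adhesion molecule, read 204, 241 and 232 CPM in cDC1s and 3.87, 5.33 and 7.41 CPM in cDC2s. In each of these the lowest cDC1 sample was far above the highest cDC2 sample. The smallest fold change among the 20 was that of Hepacam2.

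Markers of cDC2s were less uniform. Of 17 tested, 12 were higher in cDC2s, 2 were higher in cDC1s and 3 were not called, with a median log2 fold change of -3.47 that became -2.14 with members near 0 in cDC1s set to 3 counts and -2.29 without cDC2 replicate 3. Cd209a, a lectin of the DC-SIGN family, had 3, 0 and 1 counts in the cDC1 samples and 803, 774 and 933 counts in the cDC2 samples, a ratio of cDC2s over cDC1s of 699 (95% interval 273 to 2567), where such intervals cover counting error alone. Clec10a, a receptor for galactose-type sugars, had 0, 2 and 2 counts against 400, 336 and 481 counts, a ratio of 339 (95% interval 132 to 1246). Clec4a4, the antigen DCIR2 that marks the Esam+ cDC2s of the spleen, had 0, 0 and 1 counts against 167, 184 and 197 counts. The 2 markers that ran the other way were Clec12a, an inhibitory lectin, at 88.5, 108 and 91.3 CPM in cDC1s but 6.13, 8.41 and 7.47 CPM in cDC2s, and Lyz2, lysozyme, at 24.4, 28.5 and 24.7 and 4.52, 9.24 and 7.80 CPM. Esam, Tbx21 and Fcgr3 were not called, and Esam (0.156, 0.266 and 0.372 CPM in cDC1s, 0.484, 0.651 and 0.613 CPM in cDC2s) and Tbx21 (0.225 ± 0.208 and 0.334 ± 0.254 CPM) were low in both subsets. Cd4, carried by many splenic cDC2s, was at 0.307 ± 0.116 CPM in cDC1s but 1.39 ± 0.236 CPM in cDC2s.

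Genes of several other cell types were low, and some lists held members of higher level. The summed level of 10 neutrophil genes ran from 0.0533 to 0.325 CPM in cDC1s and from 1.13 to 2.95 CPM in cDC2s, and that of 12 T- and NK-cell genes ran from 0.465 to 0.853 and from 2.25 to 2.95 CPM. Ly6g and Ncr1, which define neutrophils and NK cells, were at 0 in all 6 samples. Of the B-cell genes only Ighm passed 10 CPM (22.7 ± 2.77 CPM in cDC1s, 37.6 ± 3.33 CPM in cDC2s), and the other members together reached at most 2.65 CPM in cDC1s and 4.74 CPM in cDC2s. The plasmacytoid list summed to between 78.1 and 87.9 CPM in cDC1s and between 203.7 and 227.4 CPM in cDC2s, nearly all of it Tcf4, Pacsin1 and Bst2. The monocyte list summed to between 316.8 and 328.1 CPM in cDC1s and between 138.0 and 173.8 CPM in cDC2s, where the difference rested on Treml4 (174 against 24.7 CPM) and Nr4a1 (80.3 against 41.9 CPM). These were its only members higher in cDC1s, against 4 higher in cDC2s, Csf1r among them, and the median was -0.67. Macrophage genes summed to between 17.0 and 22 CPM in cDC1s and between 23.8 and 40.4 CPM in cDC2s, of which the members other than Fcgr1 held up to 17.7 and 22.2 CPM. The pDC receptor Siglech stayed at 0.116 ± 0.0552 and 0.585 ± 0.182 CPM and the monocyte gene Ly6c2 at 0.465 ± 0.221 and 0.757 ± 0.330 CPM (means of cDC1s and cDC2s). The list for adherent tumor cells summed to between 5.21 and 6.02 CPM in cDC1s and between 82.3 and 94.8 CPM in cDC2s. Cdh1 and Thbs1, described below, made up most of this in cDC2s, and its other members together reached at most 3.28 and 4.01 CPM, with at most 2 counts of keratin 8 (Krt8) in any sample. Melanoma genes summed to at most 0.613 CPM. The platelet list ran from 5.62 to 6.87 CPM in cDC1s and from 6.29 to 21.3 CPM in cDC2s, with only Itga2b at 10 CPM or more, and its member Pf4 was high in cDC2 replicate 3 alone (0.0538, 0 and 2.95 CPM in cDC2s, 0.416, 0.373 and 0.418 CPM in cDC1s). Their part in the differences below was not tested.

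Transcription factors of the cDC lineages separated the subsets on either side: of 28 tested, 11 lay higher in cDC1s and 11 in cDC2s, beside 41.2% of all genes called, with a median of -0.09 that turned to 0.02 without cDC2 replicate 3 and to 0.07 on unnormalized log2 counts. Irf8 (ENSMUSG00000041515, chr8:121463096-121485659), the factor on which cDC1s depend, read 329, 293 and 346 CPM in cDC1s and 25.2, 20.5 and 19.0 CPM in cDC2s (3.90 ± 0.105, adjusted p = 1.19e-19). Values with ± in such parentheses are log2FC with SE. Its partner Batf3, needed for cDC1 development, differed less, with 63.2, 56.0 and 63.7 CPM in cDC1s and 25.2, 28.5 and 28.9 CPM in cDC2s (1.15 ± 0.0908, adjusted p = 1.1e-10). Id2, which blocks E proteins, was at 561, 538 and 516 CPM in cDC1s but 287, 268 and 337 CPM in cDC2s. Neither of these overlapped between the subsets. Mycl, the MYC relative used by cDC1s, was at 84.9, 74.9 and 83.9 CPM against 18.5, 13.1 and 14.3 CPM in cDC2s. Rbpj, which carries Notch signals, at 418 against 95.7 CPM, Bcl6 at 144 against 38.7 CPM and Cbfa2t3 at 207 against 57.4 CPM, named after their values were seen, were also higher in cDC1s.

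On the cDC2 side, Irf4 (ENSMUSG00000021356, chr13:30933209-30950959), the factor tied to cDC2 function and migration, read 0.781, 0.586 and 0.418 CPM in cDC1s and 38.8, 40.3 and 36.2 CPM in cDC2s (-6.01 ± 0.164, adjusted p = 1.06e-19). Zeb2 (ENSMUSG00000026872, chr2:44873644-45007464), a repressor that opposes cDC1 fate, read 8.59, 6.98 and 8.37 CPM in cDC1s and 212, 189 and 138 CPM in cDC2s (-4.49 ± 0.170, adjusted p = 1.11e-09). The cDC2 samples of Zeb2 were spread more widely than those of Irf4, with the lowest in replicate 3. Klf4 (30.1 against 131 CPM), Tcf4, the E protein of pDCs (44.8 against 184 CPM), and Zbtb46, a factor of all cDCs (63.0 against 159 CPM), were higher in cDC2s by log2 fold changes of -2.12, -2.04 and -1.33. Notch2 and Runx3, also named after their values were seen, were not called, at 203 against 202 CPM and 713 against 704 CPM, with adjusted p of 0.959 and 0.861.

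**Figure D2:**
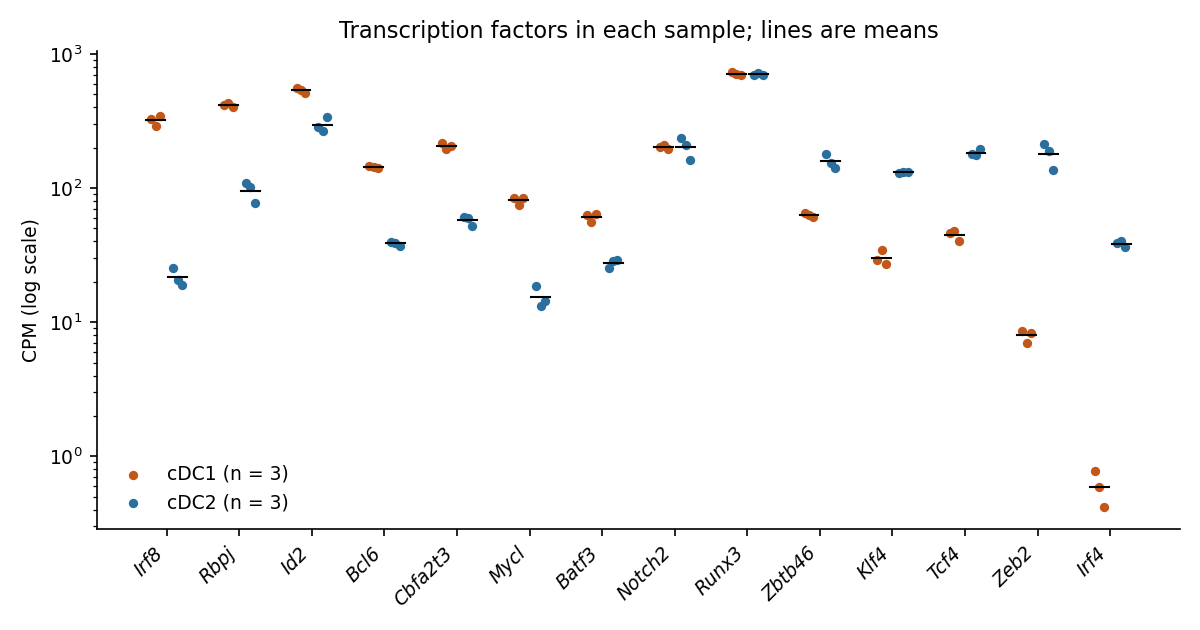
Each point is the level of a transcription factor in 1 sample, in CPM on a log axis, with 3 cDC1 samples in orange, 3 cDC2 samples in blue and a line at each mean. Irf8 to Batf3 lie higher in all 3 cDC1 samples, Notch2 and Runx3 overlap, and Zbtb46 to Irf4 lie higher in all 3 cDC2 samples.

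The largest fold changes over all genes, among those of at least 10 CPM whose samples did not overlap, were led by P3h2 and Tarm1 in the order of the fitted estimates, which is uncertain where a subset is near 0. P3h2 (ENSMUSG00000038168, chr16:25778036-25924641), a prolyl hydroxylase of collagen, had 5132, 5355 and 5801 counts in the cDC1 samples and 2, 4 and 3 in the cDC2 samples (adjusted p = 4.76e-24). Arhgap42, a RhoGAP, followed with 589, 674 and 617 counts in the cDC1 samples and 1, 1 and 0 in the cDC2 samples. Others were as near to absent in cDC2s. Tnfaip8l3 had 242, 235 and 267 counts against 0, 1 and 0. Lrrc3 had 256, 214 and 322 counts against 1, 0 and 1. Gpr33, a receptor of the chemoattractant type, had 281, 365 and 386 counts against 2, 2 and 1. The list went on with Fgfbp3, which binds fibroblast growth factors (118 against 0.278 CPM, log2FC 8.69), Gcsam (116 against 0.451 CPM, log2FC 7.99) and the orphan receptor Gpr141b (272 against 1.29 CPM, log2FC 7.73). Igf2r, which sorts lysosomal enzymes (102 against 0.654 CPM, log2FC 7.31), and Sema4f, a semaphorin (73.0 against 0.580 CPM, log2FC 6.96), were beside the gate gene Xcr1 and Itgae. Of these 12 genes only Xcr1 had been used in the sort.

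On the other side, Tarm1 (ENSMUSG00000053338, chr7:3533019-3551140), an activating receptor of myeloid cells, had 0 counts in every cDC1 sample and 263, 302 and 335 counts in the cDC2 samples, at least 111-fold higher in cDC2s when 0 is read as 3 counts per library. The rest were receptors in the main, among them Cd209a, Clec4a4, Clec10a and the gate gene Sirpa. Dscam, an adhesion molecule, had 1, 1 and 0 counts in cDC1s and 293, 278 and 254 in cDC2s. Cd300ld, an activating receptor, had 2, 0 and 2 counts against 393, 392 and 464. Sirpb1a had 0, 2 and 1 counts against 169, 190 and 256, and Clec4a1 had 2, 1 and 3 against 295, 356 and 326. All were thus near 0 in cDC1s, as was Cd209c (0.0775 against 24.2 CPM), while the Ly49 family receptor Klra17 was at 0.328 against 50.4 CPM. Several of these have close paralogs (the Clec4a, Cd209 and Sirpb families), between which the counting may have divided reads. Il1rn, the antagonist of the IL-1 receptor, read 0.572, 0.533 and 0.790 CPM in cDC1s and 81.6, 81.8 and 81.8 CPM in cDC2s (-6.99 ± 0.140, adjusted p = 3.92e-22), with almost no spread among the cDC2 samples.

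Among genes of high level, those over 2-fold higher in cDC1s were led by Cst3, cystatin C, an inhibitor of cathepsins, at 6272, 6474 and 6173 CPM in cDC1s but 1189.8, 1311 and 1483 CPM in cDC2s (2.25 ± 0.0855, adjusted p = 6.45e-17). Fnbp1, which bends membranes (3218 against 399.7 CPM, log2FC 3.01), and Mpeg1, perforin-2, a pore former of phagosomes (2548 against 118 CPM, log2FC 4.43), came next. Odc1, ornithine decarboxylase (2138 against 811 CPM, log2FC 1.40), and Kctd12 (1959 against 179 CPM, log2FC 3.46) followed. In cDC2s they were led by Fth1, ferritin heavy chain (3319.6 against 9574 CPM, log2FC -1.53), and the β-glucan receptor Clec7a (802 against 8214 CPM, log2FC -3.36). The intermediate filament Vim (1712 against 4490.3 CPM, log2FC -1.39), the membrane linker Msn (721 against 1632 CPM, log2FC -1.18) and Bhlhe40, a repressor of IL-10 (614 against 1586 CPM, log2FC -1.37), came next. Fth1 was spread within cDC2s, at 3246, 3237 and 3475 CPM in cDC1s but 7864, 9550.0 and 11307 CPM in cDC2s, with the highest value in replicate 3.

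In the lists that follow, the share of members called is read against 41.2% of all genes, 20.3% higher in cDC1s and 20.9% higher in cDC2s. Many of all genes are of low count and can hardly be called. With the stricter filter of edgeR 7743 of 12994 genes were called, a larger share. A list share moderately above 41.2% is thus not read as more than that of expressed genes. Toll-like receptors divided the subsets by receptor. Of 20 such receptors and accessory proteins, 11 were higher in cDC1s and 6 in cDC2s (85.0% called), with a median of 0.49. Tlr11, which with Tlr12 senses profilin of parasites, read 11.3, 10.6 and 13.4 CPM in cDC1s and 0.215, 0.118 and 0.279 CPM in cDC2s (5.79 ± 0.257, adjusted p = 1.21e-15). Tlr12 had 46, 35 and 36 counts against 1, 2 and 1. The receptors for nucleic acids in endosomes included Tlr3, which binds double-stranded RNA, at 2.29, 2.18 and 3.02 CPM against 0.108, 0.355 and 0.167 CPM. Tlr9, the receptor for CpG DNA, was at 75.8, 68.6 and 73.6 against 19.7, 18.3 and 13.2 CPM. Tlr4, the receptor for LPS (22.6 against 9.56 CPM, log2FC 1.24), and its co-receptor Cd14 (142 against 35.0 CPM, log2FC 2.02) were higher in cDC1s as well. On the cDC2 side, Tlr1, a partner of Tlr2 for bacterial lipoproteins, read 3.64, 2.77 and 2.84 CPM in cDC1s and 83.7, 69.7 and 69.6 CPM in cDC2s (-4.59 ± 0.125, adjusted p = 9.73e-20). Tlr2 itself (11.5 against 43.7 CPM, log2FC -1.92) and its other partner Tlr6 (12.6 against 15.9 CPM, log2FC -0.33) were higher in cDC2s as well. So was Tlr5, the receptor for flagellin, with 1, 3 and 4 counts in cDC1s and 22, 25 and 15 in cDC2s. Receptors for single-stranded RNA did not share a direction. Tlr7 had 0, 2 and 1 counts in cDC1s and 12, 17 and 10 in cDC2s. Tlr8 had 0, 0 and 1 and 23, 33 and 26 counts, whereas Tlr13, which binds bacterial ribosomal RNA, was higher in cDC1s (32.4 against 9.03 CPM, log2FC 1.85), both named after their values were seen. Calls for Tlr6 were lost with the length correction, on unnormalized log2 counts and without cDC1 replicate 1 or 2.

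Of 19 sensors in the cytosol, 10 were higher in cDC2s and 3 in cDC1s (68.4% called, median -0.38). Nlrc4, which assembles an inflammasome on bacterial flagellin, read 0.468, 0.586 and 0.930 CPM in cDC1s and 16.8, 16.3 and 17.5 CPM in cDC2s (-4.64 ± 0.189, adjusted p = 2.23e-16). Rigi, the sensor of viral RNA, read 10.4, 7.51 and 9.62 and 95.9, 80.1 and 76.4 CPM. Nod1 (3.30 against 10.8 CPM, log2FC -1.71), Nod2 (73.7 against 139 CPM, log2FC -0.92), Sting1 (70.6 against 116 CPM, log2FC -0.72), Nlrp3 (70.5 against 96.0 CPM, log2FC -0.45) and Ifih1 (47.8 against 62.3 CPM, log2FC -0.38) were higher in cDC2s by smaller amounts. The 3 higher in cDC1s were Nlrp1b (24.2 against 2.82 CPM, log2FC 3.10), the DNA sensor Aim2 (117 against 60.9 CPM, log2FC 0.94) and Pycard, the adaptor ASC. Cgas, which makes the ligand of STING, was not called (14.9 against 15.8 CPM, log2FC -0.08, adjusted p = 0.589).

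C-type lectin receptors, which bind sugars and other ligands on microbes and dead cells, leaned to cDC2s. Of 24, 18 were higher in cDC2s and 4 in cDC1s (91.7% called, median -2.11, or -1.96 with members near 0 set to 3 counts). Clec7a, Dectin-1, read 764, 908 and 732 CPM in cDC1s and 7722, 7969 and 8951 CPM in cDC2s (-3.36 ± 0.0946, adjusted p = 1.88e-19). Clec4n, Dectin-2, read 126, 151 and 125 and 692, 772 and 897 CPM. The 4 higher in cDC1s were Clec9a, Clec12a, Ly75 and Cd207. Ly75, the antigen receptor DEC-205, read 1154, 1128 and 1077 CPM in cDC1s and 395, 302 and 235 CPM in cDC2s, and Cd207, langerin, had 51, 69 and 52 and 0, 1 and 0 counts.

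Receptors and bridging proteins for dying cells, other than the lectins, were divided: 3 of 25 were higher in cDC1s, 10 in cDC2s and 12 were not called, so that 52.0% were called, near the 41.2% of all genes. Cd36, a scavenger receptor for oxidized lipid and apoptotic cells, read 1318, 1491 and 1322 CPM in cDC1s and 329, 343 and 299 CPM in cDC2s (2.09 ± 0.0832, adjusted p = 1.5e-16). Scarb1, the HDL receptor (41.3 against 10.3 CPM, log2FC 2.01), and Timd4, a receptor for phosphatidylserine (58.7 against 29.6 CPM, log2FC 0.99), were also higher in cDC1s. Itgb3, an integrin chain that takes up cells bridged by MFG-E8, read 4.42, 5.12 and 4.09 CPM in cDC1s and 43.0, 41.3 and 47.7 CPM in cDC2s. Lrp1, a receptor for calreticulin and α2-macroglobulin (80.8 against 254 CPM, log2FC -1.65), was also higher in cDC2s. The inhibitory receptor Cd300a (40.6 against 128 CPM, log2FC -1.66) and Axl, a receptor for Gas6 (3.10 against 5.03 CPM, log2FC -0.68), were on the same side, the latter not called without cDC1 replicate 1. Havcr2, TIM-3, was not called, with 639, 719 and 655 CPM in cDC1s and 691, 715 and 625 CPM in cDC2s, and Mertk stayed under 0.2 CPM in both means (0.157 ± 0.228 and 0.153 ± 0.126 CPM). Of 10 Fc and complement receptors, 5 were higher in cDC2s and none in cDC1s, or 4 and 1 without cDC2 replicate 3. The share called, 50%, was also near that of all genes, and the median of -0.54 became -0.21 with the member near 0 set to 3 counts. The shared γ chain Fcer1g read 16.9, 13.7 and 16.5 CPM in cDC1s and 79.8, 98.6 and 112 CPM in cDC2s. The activating receptor Fcgr1 (5.21 against 15.8 CPM, log2FC -1.60) and the inhibitory Fcgr2b (24.2 against 50.9 CPM, log2FC -1.07) were on the same side.

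**Figure D3:**
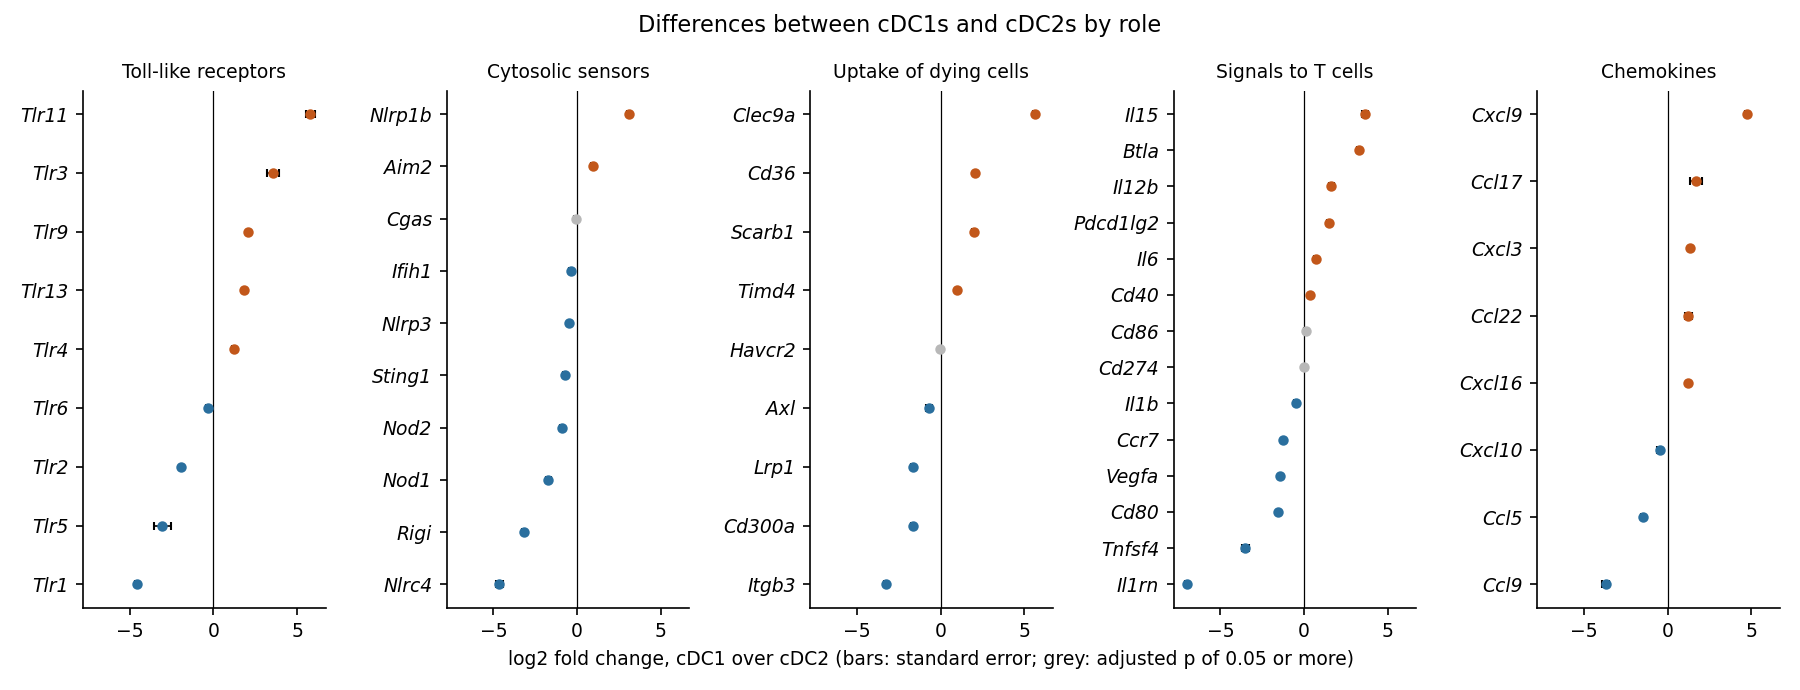
Each point is the log2 fold change of cDC1s over cDC2s of a gene, with its standard error, in 5 panels by role. Orange points were called higher in cDC1s, blue points higher in cDC2s and grey points were not called, so that each panel has genes on both sides of 0, such as Tlr11 and Tlr1, Cxcl9 and Ccl9.

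Genes of antigen presentation differed in both directions, most of them by less than 2-fold. For MHC class II, 8 of 19 genes lay higher in cDC1s and 9 in cDC2s (89.5% called), with 2 and 3 of them over 2-fold. The classical chain H2-Eb1 (7802 against 5264 CPM, log2FC 0.57) and the invariant chain Cd74 (10372 against 8673 CPM, log2FC 0.26) were slightly higher in cDC1s, and the call for Cd74 was lost without cDC1 replicate 2 or 3 and without cDC2 replicate 1 or 2. A larger difference was that of Marchf1, the ligase that removes MHC class II from the surface, with 44.4, 44.3 and 52.0 CPM in cDC1s and 1.08, 1.89 and 1.45 CPM in cDC2s (5.00 ± 0.150, adjusted p = 6.17e-19). The peptide editor H2-DMb1 (60.9 against 22.4 CPM, log2FC 1.45) and the master regulator Ciita (324 against 169 CPM, log2FC 0.94) were higher in cDC1s too. H2-Eb2 ran against its neighbor H2-Eb1, with 8.80, 6.02 and 8.18 CPM in cDC1s and 75.9, 97.6 and 97.0 CPM in cDC2s (-3.55 ± 0.133, adjusted p = 1.2e-13). Also higher in cDC2s were H2-DMb2 (19.7 against 39.3 CPM, log2FC -0.99) and the proteases Ctsd (4.58 against 16.8 CPM, log2FC -1.87), Ctsh (84.8 against 174 CPM, log2FC -1.04) and Ctss (413 against 651 CPM, log2FC -0.66).

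Of 17 genes of MHC class I presentation, 13 were higher in cDC1s and 3 in cDC2s (94.1% called, median 0.45), and 1 of the differences passed 2-fold. The immunoproteasome subunit Psmb9 read 113, 96.8 and 113 CPM in cDC1s and 39.1, 36.1 and 48.6 CPM in cDC2s (1.38 ± 0.101, adjusted p = 8.46e-11). Both chains of the peptide transporter, Tap1 (419.8 against 295 CPM, log2FC 0.51) and Tap2 (216 against 114 CPM, log2FC 0.93), were higher in cDC1s. The peptide editors Tapbp (316 against 230.3 CPM, log2FC 0.45) and Tapbpl (80.8 against 41.1 CPM, log2FC 0.97) were too. Smaller differences on this side were those of the trimming protease Erap1 (66.0 against 54.3 CPM, log2FC 0.28) and the transactivator Nlrc5 (106 against 79.9 CPM, log2FC 0.40). The 3 higher in cDC2s were the class I chains themselves, H2-K1, H2-D1 and B2m. H2-K1 read 759.6, 727 and 802 CPM in cDC1s and 985, 1037 and 1199 CPM in cDC2s, and H2-D1 was near it in size (1481 against 1846 CPM, log2FC -0.32). The call for B2m, β2-microglobulin (1030.5 against 1176 CPM, log2FC -0.19, adjusted p = 0.0488), was lost under 11 of 17 other settings.

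Genes named for cross-presentation were split, with 5 of 15 higher in cDC1s and 7 in cDC2s (80.0% called). Wdfy4, required for cross-presentation of cell-associated antigen, read 614, 578 and 671 CPM in cDC1s and 61.2, 74.4 and 53.7 CPM in cDC2s (3.30 ± 0.106, adjusted p = 3.19e-16). Rab7b, a GTPase of late endosomes, read 292, 306 and 307 and 3.07, 6.10 and 3.23 CPM, and Rab43, which serves cross-presentation in cDC1s, 77.5 against 25.2 CPM. The catalytic subunit of the NADPH oxidase, Cybb, went the other way at 2.45, 1.92 and 4.00 CPM in cDC1s but 59.8, 69.7 and 57.9 CPM in cDC2s (-4.46 ± 0.177, adjusted p = 3.77e-11). Of its cytosolic partners, Ncf1 (307 against 416 CPM, log2FC -0.44) was higher in cDC2s and Ncf4 (99.7 against 37.0 CPM, log2FC 1.43), named after its value was seen, was higher in cDC1s. Rab27a (37.8 against 83.7 CPM, log2FC -1.15) and Sec22b (60.4 against 76.6 CPM, log2FC -0.34) were higher in cDC2s.

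Costimulation and maturation genes showed different members on each side, 12 of 25 higher in cDC1s and 9 in cDC2s (84.0% called). Cd80, a ligand of CD28, read 272, 299 and 259 CPM in cDC1s and 829, 791 and 804 CPM in cDC2s (-1.55 ± 0.0789, adjusted p = 1.91e-14). Its relative Cd86 was not called, at 944, 930.3 and 923 and 829.5, 863 and 928 CPM. Ccr7, the receptor that guides dendritic cells to lymph nodes, read 627, 558 and 534 CPM in cDC1s and 1328, 1218 and 1549.7 CPM in cDC2s. The actin bundler Fscn1 (4.87 against 72.6 CPM, log2FC -3.89) and OX40 ligand Tnfsf4 (0.931 against 10.6 CPM, log2FC -3.51) were higher in cDC2s as well, with Socs2 (52.9 against 198 CPM, log2FC -1.90) and the ICOS ligand Icosl (58.6 against 79.5 CPM, log2FC -0.44). The PD-1 ligand Pdcd1lg2 was higher in cDC1s and read 278, 273 and 276 CPM in cDC1s and 101, 101 and 96.0 CPM in cDC2s. Btla, an inhibitory receptor for HVEM (64.0 against 6.63 CPM, log2FC 3.27), and Ido1, which degrades tryptophan and was named after its value was seen (2.29 against 0.240 CPM, log2FC 3.20), were higher as well. So were Cd24a (75.1 against 12.7 CPM, log2FC 2.57) and Cd40, which receives the signal of helper T cells (117 against 92.1 CPM, log2FC 0.35). The other PD-1 ligand, Cd274, was not called (932 against 923 CPM, log2FC 0.01, adjusted p = 0.931).

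Of 20 cytokines tested, 6 lay higher in each subset (60.0% called). Il15, which sustains CD8+ T and NK cells, read 13.0, 15.3 and 13.0 CPM in cDC1s and 1.02, 1.18 and 1.06 CPM in cDC2s (3.66 ± 0.175, adjusted p = 5.4e-15). Il12b, the p40 subunit of IL-12, read 15.2, 12.7 and 14.2 CPM in cDC1s and 5.60, 3.32 and 4.57 CPM in cDC2s, while its partner Il12a had at most 2 counts in any sample. Il16 (19.2 against 1.20 CPM, log2FC 4.00), Il18 (16.5 against 4.04 CPM, log2FC 2.04) and Il6 (63.3 against 38.6 CPM, log2FC 0.71) were higher in cDC1s too. Beside Il1rn, the genes higher in cDC2s included Il1b, with 3794, 3869 and 3705 CPM in cDC1s and 4939, 5141 and 6062 CPM in cDC2s (-0.51 ± 0.0817, adjusted p = 1.41e-05). Osm, oncostatin M (3.35 against 22.5 CPM, log2FC -2.74), and the vascular growth factor Vegfa (93.8 against 255 CPM, log2FC -1.44) were higher there too. Tnf was not called (3.78 against 3.73 CPM, log2FC 0.03, adjusted p = 0.934), and Il10 and Il27 had at most 5 counts in any sample.

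Of 18 chemokines, 8 were higher in cDC1s and 4 in cDC2s (66.7% called). Cxcl9, which recruits CXCR3+ T cells, read 62.6, 62.7 and 63.3 CPM in cDC1s and 1.83, 2.96 and 2.17 CPM in cDC2s (4.76 ± 0.130, adjusted p = 9.73e-20). Cxcl10, which binds the same receptor, was instead slightly higher in cDC2s (8.77 against 12.2 CPM, log2FC -0.48), a call lost without cDC1 replicate 3 and on unnormalized log2 counts. Ccl22, a ligand of CCR4, was spread within each subset, at 194, 126 and 170.4 CPM in cDC1s but 85.9, 64.8 and 58.9 CPM in cDC2s (1.23 ± 0.209, adjusted p = 0.00375), and its call was lost without cDC2 replicate 3. Cxcl16 (837 against 356 CPM, log2FC 1.23), Cxcl3 (71.6 against 27.9 CPM, log2FC 1.36) and Ccl17 (1.42 against 0.430 CPM, log2FC 1.70) were also higher in cDC1s. Ccl5 (21.0 against 58.9 CPM, log2FC -1.49) and Ccl9 (0.903 against 12.0 CPM, log2FC -3.71) were higher in cDC2s. Of 20 receptors for chemoattractants, 11 were higher in cDC2s and 3 in cDC1s (70.0% called). Gpr183, the oxysterol receptor that positions cDC2s in the spleen, read 12.8, 7.46 and 9.53 CPM in cDC1s and 181, 146 and 200.4 CPM in cDC2s. S1pr3, a receptor for sphingosine-1-phosphate, read 4.58, 3.84 and 3.16 and 90.1, 87.0 and 86.8 CPM. All samples of cDC2s were several-fold above those of cDC1s in both of these, and the fractalkine receptor Cx3cr1 had 1, 2 and 0 counts in cDC1s and 122, 137 and 135 in cDC2s. The 3 higher in cDC1s were Ccr9 (1.88 against 0.413 CPM, log2FC 2.17), Cxcr4 (146 against 77.6 CPM, log2FC 0.91) and S1pr2 (21.3 against 10.4 CPM, log2FC 1.03).

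Of 26 adhesion genes, 11 were higher in cDC1s and 7 in cDC2s (69.2% called). Beside Itgae and Cadm1, given above, the tetraspanin Cd81 read 229, 301 and 254 CPM in cDC1s and 3.82, 4.26 and 3.62 CPM in cDC2s (6.06 ± 0.124, adjusted p = 5.7e-22), and its relative Cd9 276 against 132 CPM. Cdh1, E-cadherin, read 0.208, 0.480 and 0.372 CPM in cDC1s and 30.8, 38.9 and 32.2 CPM in cDC2s (-6.56 ± 0.196, adjusted p = 5.62e-19), at a point where Krt8 and Epcam of epithelial cells were at 1.04 CPM or less in both means. Thrombospondin, Thbs1, was higher in cDC2s (2.51 against 51.1 CPM, log2FC -4.35).

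Among cytokine receptors, 12 of 38 lay higher in cDC1s and 18 in cDC2s (78.9% called). Flt3, the receptor for the growth factor given by the tumor, read 229, 190.2 and 210.3 CPM in cDC1s and 55.7, 56.5 and 49.3 CPM in cDC2s (1.96 ± 0.0887, adjusted p = 1.75e-15). Higher in cDC1s were also the interferon receptor Ifnar1 (311 against 166 CPM, log2FC 0.90), Il6ra and Ltbr (61.5 against 32.2 CPM, log2FC 0.93). The TGF-β receptors Tgfbr1 (47.3 against 18.3 CPM, log2FC 1.37) and Tgfbr2 (78.2 against 25.7 CPM, log2FC 1.61) were on the same side. Both chains of the IL-18 receptor were higher in cDC2s, while the ligand Il18 was higher in cDC1s. Il18rap read 4.42, 5.86 and 3.95 CPM in cDC1s and 114, 142 and 109 CPM in cDC2s. Il18r1 read 0.781, 0.533 and 0.558 and 14.9, 15.0 and 14.0 CPM. The α chain of the IL-2 receptor, Il2ra (9.64 against 100.5 CPM, log2FC -3.38), and the common γ chain Il2rg (28.2 against 206 CPM, log2FC -2.87), named after its value was seen, were higher in cDC2s. So were Csf1r (2.62 against 19.3 CPM, log2FC -2.86) and Ifngr1 (521 against 964 CPM, log2FC -0.89). Csf2ra (219 against 237 CPM, log2FC -0.11) and Kit (539 against 551 CPM, log2FC -0.03) were not called, and the common β chain Csf2rb, which carries the GM-CSF signal, was slightly higher in cDC1s (2772 against 1846 CPM, log2FC 0.59).

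Of 40 interferon-stimulated genes, 21 were higher in cDC2s and 7 in cDC1s (70.0% called), with a median log2 fold change of -0.38. The list did not move as a block. Rtp4, a chaperone of receptors, read 0.729, 0.746 and 0.651 CPM in cDC1s and 58.3, 57.3 and 77.8 CPM in cDC2s (-6.50 ± 0.171, adjusted p = 1.94e-19). Ifit1, which binds foreign RNA caps, read 2.86, 3.04 and 3.02 CPM in cDC1s and 43.7, 43.3 and 43.8 CPM in cDC2s, and Oas2, which makes the activator of RNase L, 2.45, 1.92 and 2.79 and 43.5, 38.8 and 38.7 CPM. Ifit3 (1.86 against 28.8 CPM, log2FC -3.95) and Isg15 (25.9 against 71.8 CPM, log2FC -1.47) were higher in cDC2s too. The largest difference toward cDC1s was that of Oasl1, which restrains translation of Irf7, with 354, 369 and 419 CPM in cDC1s and 58.2, 63.5 and 69.7 CPM in cDC2s (2.58 ± 0.0907, adjusted p = 1.36e-17). Ifi44 (19.1 against 5.35 CPM, log2FC 1.84) and Trim30a (285 against 132 CPM, log2FC 1.10) were on the same side. Irf7, a factor that drives interferon production, was not called (96.3 against 121 CPM, log2FC -0.32, adjusted p = 0.117).

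Promoters are shown because the letters of the interferon-stimulated response element (GAAA, any 2 bases and GAAA, on either strand) stood in many of these genes. Most genes of the list that held them were higher in cDC2s. Windows were the 250 bases before the gene start of RefSeq (build GRCm38.p6), and symbols with more than 1 window were left out. Matching by symbol gave a window for 9473 of the 20262 genes tested and for 21 of the 40 interferon-stimulated genes. The letters occurred in 11 of these 21, 52.4%, against 2.87% of the genes tested with a window and 3.11% of all 22862 promoters. They occurred in 8 of 14 members higher in cDC2s and in 2 of 5 higher in cDC1s, Stat2 and Slfn5. Over all genes with a difference over 2-fold they occurred in 3.35% of 1104 promoters of genes higher in cDC1s and in 4.66% of 815 higher in cDC2s. The related element of ETS and IRF factors, GGAA, any 2 bases and GAAA, whose letters can overlap those of the first, occurred in 2.72% and 1.72% of the same promoters, and the AP-1 element TGANTCA in 4.98% and 6.38%, against 2.05% and 4.40% of the genes tested. Within the interferon-stimulated genes, the ETS and IRF letters occurred in 0 of 14 members higher in cDC2s and 2 of 5 higher in cDC1s, and the AP-1 letters in 7 of 14 and 0 of 5. In the following promoters, printed 5′ to 3′ in the sense of the gene and ending at the base before its start, capitals mark the response element or its reverse complement. They belong to 2 genes of the interferon list, Ifit1 and Isg15, to the oxidase subunit Cybb, higher in cDC2s, and to Tlr11, higher in cDC1s. Cybb and Tlr11 are outside that list, and no member of the list higher in cDC1s is printed, so these examples do not stand for either side. A match of letters is a description and not a site of binding.
Ifit1, chr19:34640639-34640888, plus strand: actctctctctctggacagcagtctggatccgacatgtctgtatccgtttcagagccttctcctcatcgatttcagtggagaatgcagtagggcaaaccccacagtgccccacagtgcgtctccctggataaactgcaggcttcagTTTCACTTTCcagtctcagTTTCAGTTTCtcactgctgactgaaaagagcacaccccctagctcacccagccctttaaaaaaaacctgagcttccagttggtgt
Isg15, chr4:156200819-156201068, minus strand: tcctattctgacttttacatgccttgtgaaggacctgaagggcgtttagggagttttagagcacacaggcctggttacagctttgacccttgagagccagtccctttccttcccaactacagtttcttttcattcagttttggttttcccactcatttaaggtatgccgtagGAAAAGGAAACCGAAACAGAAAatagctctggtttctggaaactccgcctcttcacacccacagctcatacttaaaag
Cybb, chrX:9469325-9469574, minus strand: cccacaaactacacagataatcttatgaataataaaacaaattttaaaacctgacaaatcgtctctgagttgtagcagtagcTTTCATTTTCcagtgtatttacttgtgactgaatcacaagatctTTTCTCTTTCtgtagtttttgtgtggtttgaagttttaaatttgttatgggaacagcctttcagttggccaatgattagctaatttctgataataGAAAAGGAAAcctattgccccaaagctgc
Tlr11, chr14:50357664-50357913, plus strand: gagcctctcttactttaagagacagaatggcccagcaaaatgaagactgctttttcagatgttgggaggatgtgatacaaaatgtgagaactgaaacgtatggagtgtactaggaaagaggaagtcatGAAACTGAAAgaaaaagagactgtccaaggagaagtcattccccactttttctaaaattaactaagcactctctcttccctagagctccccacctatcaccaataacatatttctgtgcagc

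Of 37 cell division genes, 21 were higher in cDC1s and 4 in cDC2s (67.6% called, median 0.57). Mki67, the proliferation antigen, read 107, 115 and 126 CPM in cDC1s and 42.0, 56.2 and 38.3 CPM in cDC2s (1.35 ± 0.120, adjusted p = 1.6e-07). Cdk1, the kinase of mitotic entry (10.9 against 2.82 CPM, log2FC 1.96), and Bub1b, of the spindle checkpoint (24.7 against 8.84 CPM, log2FC 1.48), were also higher in cDC1s. The 4 higher in cDC2s were Mcm4 (72.4 against 112 CPM, log2FC -0.63), Pcna (33.4 against 43.6 CPM, log2FC -0.38), Rrm1 (23.5 against 28.9 CPM, log2FC -0.29) and Ccne2. The call for Rrm1 was lost without cDC1 replicate 1 or 2, without cDC2 replicate 2 and on unnormalized log2 counts, and that for Pcna on the last alone. Top2a was not called (67.1 against 61.7 CPM, log2FC 0.12, adjusted p = 0.341). In bulk samples a larger share of dividing cells and more such RNA per cell cannot be told apart.

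Genes of metabolism were mixed. Glycolysis had 9 of 19 members higher in each subset (94.7% called). The hexokinase Hk3 read 15.1, 15.7 and 14.6 CPM in cDC1s and 0.699, 1.36 and 1.34 CPM in cDC2s. Its relative Hk2 (56.6 against 23.8 CPM, log2FC 1.25), Tpi1 (31.8 against 14.2 CPM, log2FC 1.16) and Ldha, lactate dehydrogenase (216 against 99.3 CPM, log2FC 1.12), were also higher in cDC1s. The lactate exporter Slc16a3 went the other way with 22.3, 21.0 and 21.1 CPM in cDC1s and 103, 114 and 120.2 CPM in cDC2s. The glucose transporter Slc2a1 (27.4 against 54.2 CPM, log2FC -0.98) and Eno1 (25.7 against 49.3 CPM, log2FC -0.94) were higher in cDC2s too. Cholesterol synthesis was near the background, with 10 of 21 genes called, 7 of them higher in cDC2s, such as Hmgcs1 (64.4 against 117 CPM, log2FC -0.86), Cyp51 (28.0 against 45.2 CPM, log2FC -0.69) and Sqle (4.69 against 9.28 CPM, log2FC -0.99).

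Every tested member of the BCL2 family was called, 9 of 14 higher in cDC1s and 5 in cDC2s, and 13 were called with the length correction. On unnormalized log2 counts 9 were called higher in cDC1s and 2 in cDC2s. Bcl2l11, Bid, Bmf, Bbc3, Pmaip1 and Bad, which have a BH3 domain alone and trigger cell death, were among those higher in cDC1s, and this subgroup was picked out after the values were seen and not tested as one. Bcl2l11, which encodes BIM, read 1405, 1343 and 1379 CPM in cDC1s and 272, 282 and 245 CPM in cDC2s (2.37 ± 0.0808, adjusted p = 7.3e-18). Bid read 43.7, 41.7 and 45.4 and 5.06, 8.76 and 7.52 CPM and Bmf 67.1 against 18.7 CPM. BimS, the protein that the inducible TC-1 line makes, is an isoform of the same gene, and these cells had met only medium of WT cells. Bcl2 itself (2.06 against 9.22 CPM, log2FC -2.16) and Bax (35.6 against 62.8 CPM, log2FC -0.82) were higher in cDC2s. Bcl2l1, which encodes BCL-XL, was higher in cDC1s (76.4 against 48.8 CPM, log2FC 0.65) and Mcl1 slightly so in cDC2s (1031 against 1229 CPM, log2FC -0.25). The call for Mcl1 was lost without cDC1 replicate 1 or 3 and on unnormalized log2 counts. The Bcl2a1 genes are near-identical copies between which the counting may have divided reads, so their values are uncertain. Of the necroptosis and death receptor genes, 5 of 12 were higher in cDC2s and 1 in cDC1s, none by over 2-fold, a share of 50% near that of all genes, and the counts were 3 and 3 with the length correction. Among them were Ripk1 (222 against 297 CPM, log2FC -0.42) and Birc2 (134 against 204 CPM, log2FC -0.61), higher in cDC2s, and Birc3 (539 against 359 CPM, log2FC 0.59), higher in cDC1s. Ripk3 (25.2 against 27.7 CPM, log2FC -0.14, adjusted p = 0.338) and Mlkl (0.836 against 1.40 CPM, log2FC -0.74, adjusted p = 0.0653) were not called.

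**Figure D4:**
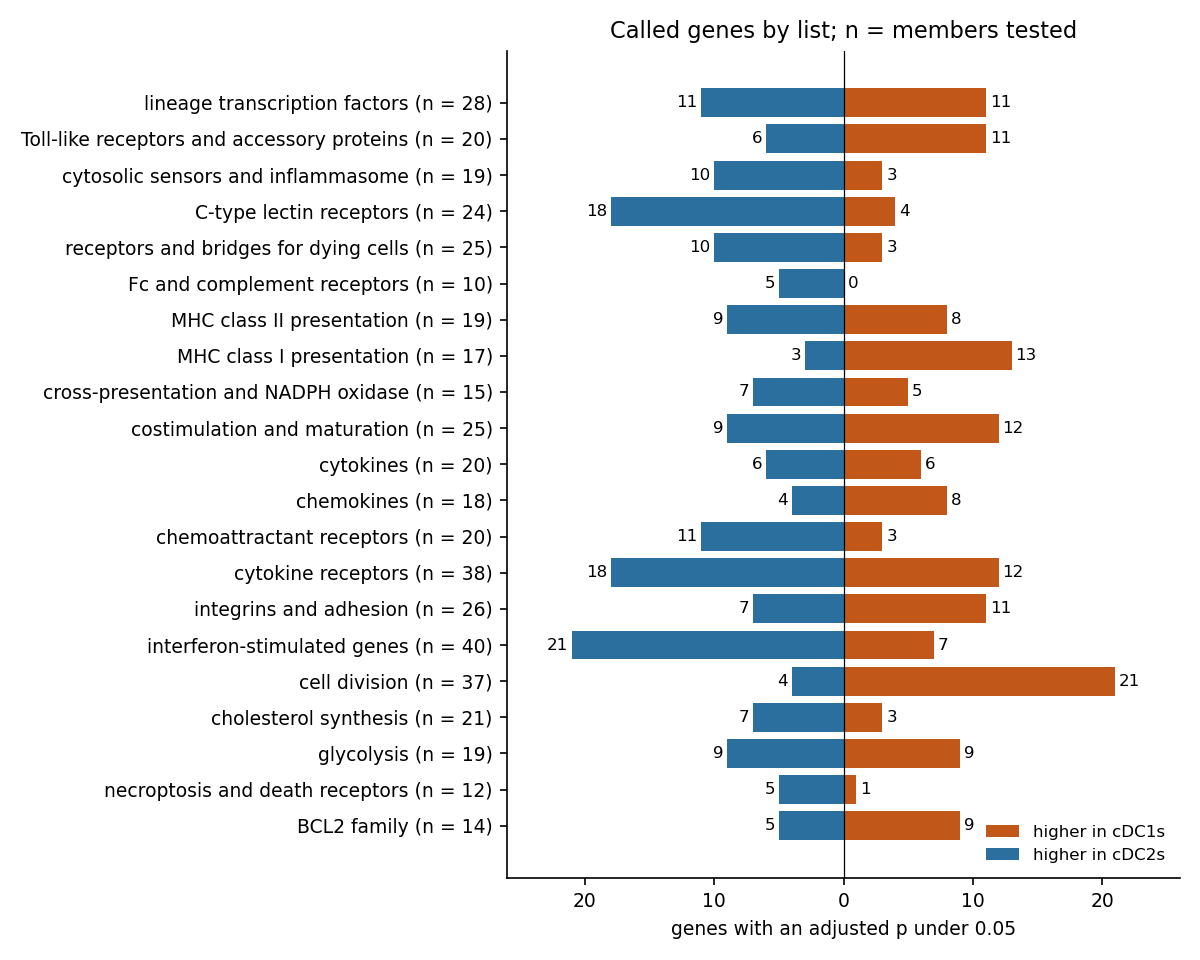
Bars give the number of genes of each list called higher in cDC1s (orange, to the right) or in cDC2s (blue, to the left) at an adjusted p under 0.05, with the number tested beside the name. C-type lectin receptors and interferon-stimulated genes lean to cDC2s, with 18 and 21 genes, and cell division and MHC class I presentation to cDC1s, with 21 and 13 genes.

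Whether the subset difference held in the other media was asked in samples that share none with the 6 above. The labels do not say whether the media used separate pools of spleens, so these samples are not known to be independent of the 6. With BimS medium (3 and 3 samples), debris of apoptotic cells from a clonal line that expresses BimS under cumate, 7160 of the 8357 genes were called in the same direction, which was 85.7% of the WT calls and 79.2% of the 9041 BimS calls, and 11 genes were called in opposite directions. With RIPK3 medium (3 and 2 samples), debris of necroptotic cells from a clonal line that expresses an oligomerizing RIPK3, the number was 6728, 80.5% of the WT calls and 82.2% of the 8183 RIPK3 calls, with 15 in opposite directions. The log2 fold changes of genes of at least 8 CPM correlated across genes with Pearson's r of 0.982 over 7819 genes and 0.977 over 7791 genes, a description in which genes are not independent replicates. As examples of large differences, the log2 fold change of Clec9a was 5.62 with WT, 5.50 with BimS and 5.43 with RIPK3 medium, and that of Il1rn was -6.99, -7.23 and -6.67.

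A test of the difference between media, in a fit of all 17 samples, called 166 of 19082 genes (0.87%) against BimS medium and 217 (1.14%) against RIPK3 medium. DESeq2 called 261 and 305, and the same fit with the replicate number as a block called 443 and 449, so these counts depend on the setting. The comparisons share the 6 WT samples. Among the transcription factors the edgeR test without the block called Irf8, Zeb2, Mycl and Runx3. With all libraries normalized together, Irf8 was at 309 ± 27.7 CPM (SD, n = 3) in cDC1s with WT medium, 184 ± 8.70 CPM with BimS medium and 176 ± 8.47 CPM with RIPK3 medium, whereas in cDC2s it was at 20.8 ± 2.93, 21.3 ± 3.65 and 29.1 ± 5.81 CPM (n = 2 for cDC2s with RIPK3 medium). Zeb2 was at 7.66 ± 0.862 CPM in cDC1s with WT medium, 26.8 ± 1.75 CPM with BimS and 19.3 ± 2.88 CPM with RIPK3 medium, and in cDC2s at 173 ± 35.4, 237 ± 28.0 and 199 ± 13.9 CPM. On the log2 scale the subsets were thus farther apart in both factors with medium of live cells than with either debris, while the difference in CPM of Zeb2 was smaller with medium of live cells, and in each medium they did not overlap.

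**Figure D5:**
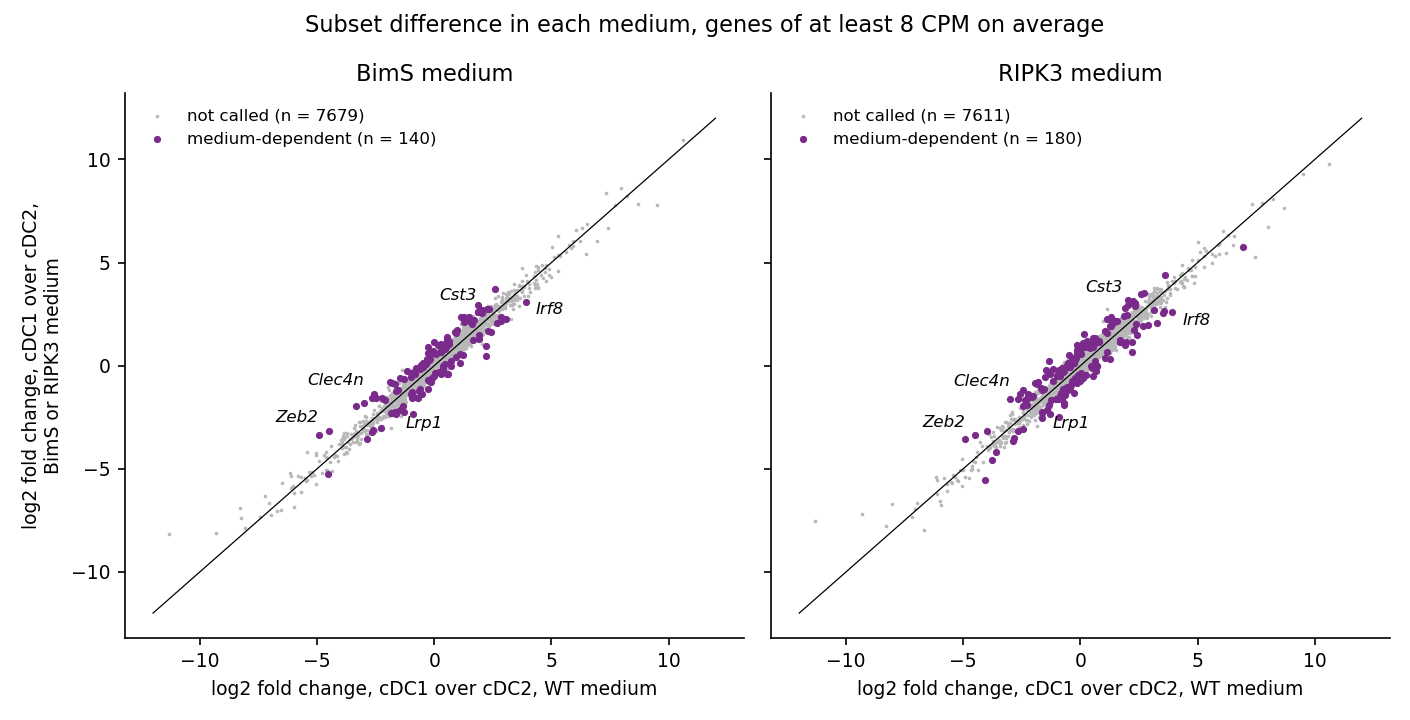
Each point is a gene of at least 8 CPM on average, with its log2 fold change of cDC1s over cDC2s in WT medium on the x axis and in BimS medium (left, 7819 genes) or RIPK3 medium (right, 7791 genes) on the y axis, and the line marks equal values. Purple points, 140 and 180 genes, were called by the test of the difference between media, and Irf8 and Zeb2 lie nearer to 0 in the debris media.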

How the data were processed

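RNA was measured by bulk poly(A) RNA-seq of sorted cDC1s and cDC2s (NovaSeq, paired reads of 54 bases). According to the study's methods and the submitters' processing notes, the authors trimmed reads with SeqPurge, aligned them with STAR 2.7.10a to GRCm39 and counted them per Ensembl gene with gensum, and whether strand was used is not given in the sources used here. The authors deposited raw counts per gene, used here, and a table of log2 values, log2(10 × CPM + 1) scaled by the library total, used as an alternative. The 6 samples held 16792907 to 21410901 counts, which sets a level of 3 counts at 0.139 to 0.178 CPM, and intervals at 95% and this floor cover counting error only, as reads are not independent molecules. Lines without a gene identifier, at most 0.0297% of the counts, were left out, and every per-sample column had a label. Genes counted above 0 in 50% or more of the samples were fitted with edgeR 4.0.16 (TMM, robust quasi-likelihood) in R 4.3.3, with Benjamini-Hochberg adjusted p under 0.05 as a call. CPM was scaled by TMM. The fit was tested on simulated data, where it recovered most of the changed genes and the share of false calls was above the nominal one. The simulation changed far fewer genes than were called here and gave all samples of a gene the same dispersion. Neither share therefore carries over to these data. Alternatives used DESeq2 1.42.0, limma 3.58.1 on log2(count + 1) (the study's methods name this transformation and limma, but also a raw count matrix as its input), on log2 CPM and on the deposited log2 values, other scalings and filters, a replicate block and the omission of each sample. Gene coordinates are those of the GENCODE M39 annotation of GRCm39, and promoters those of RefSeq on GRCm38.p6.

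The gene lists and members were chosen with earlier results of these data known. The text names the key genes of each list, up to 3 members of each list with the largest called fold change in each direction (10 CPM or more, samples not overlapping), the 12 largest fold changes in each direction over all genes and the 5 most abundant genes over 2-fold different in each direction. Other genes (among them Ccne2, Pycard, Bbc3, Pmaip1, Bad, Hepacam2, Epcam, Plac8, Bst2, Stat2, Slfn5, Bcl6, Rbpj, Cbfa2t3, Notch2, Runx3, Tlr8, Tlr13, Cd207, Psmb8, H2-Ab1, Ido1, Il2rg, Ncf4 and Oasl2) were named after their values were seen. Genes used in the sort are described and not taken as results. Fcer1a, Ccl24, Vsig4, Hba-a2, Gp1bb, Krt19, Tyr and Tyrp1 were not analysed here. Some key genes are not reported here.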

Additional observations from a re-analysis of the deposited data

Results flagged for a closer look

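Named genes whose subset difference (log2 fold change of cDC1s over cDC2s) differed between media by the interaction test of edgeR are listed here, as the difference with WT medium minus that with debris. The tests against BimS and RIPK3 medium share the 6 WT samples, and the RIPK3 arm has 2 cDC2 samples.

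Among transcription factors, the difference in Irf8 was larger with WT medium by 0.78 (adjusted p = 0.0254) than with BimS and by 1.30 (adjusted p = 0.000265) than with RIPK3 medium. That in Mycl was larger by 0.76 and 0.91. Zeb2, higher in cDC2s, differed by -1.35 (adjusted p = 0.0057) and -1.13 (adjusted p = 0.0259), and Runx3, not called with WT medium, by 0.36 and 0.37. The abundant Cst3 went the other way, by -0.53 and -0.91, and its level in cDC2s was 1280 CPM with WT, 814 CPM with BimS and 670.0 CPM with RIPK3 medium.

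Among receptors, Clec4n (Dectin-2) gave -1.22 (adjusted p = 6.9e-07) and -1.17 (adjusted p = 2.43e-06), and its mean in cDC1s was 128 CPM with WT, 519.7 CPM with BimS and 476 CPM with RIPK3 medium. Cd300a gave -0.78 and -0.50, Lrp1 0.67 and 0.65, and Oasl2, an interferon-stimulated gene, -0.87 and -1.25. Against BimS medium only, the test called Havcr2 (0.48), S1pr3 (0.74) and Tlr13 (-0.77), and against RIPK3 medium only Fcgr1 (1.48), Fcgr3 (0.66), Kit (0.50), S1pr2 (0.64) and Sema4f (1.18). Whether these genes differ between the 2 debris media was not tested.

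Of secreted factors, Il6 gave 0.72 in both tests: it was higher in cDC1s by 0.71 with WT medium, and its difference was -0.02 with BimS and -0.01 with RIPK3 medium. Vegfa gave 0.69 and 0.68. The remaining genes were Fdps (0.55) and Nr4a1 (-0.64) against BimS medium and Bcl2l11 (0.36) and Psmb8 (-0.45) against RIPK3 medium.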

How the results depend on the processing

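Over 17 other settings, the number of genes called ranged from 7188 to 8808 against 8357, with 7517 by DESeq2, 7743 of 12994 genes with the stricter filter of edgeR and 8370 without a filter, and leaving out each sample in turn gave 7188 to 8779. A test against a 2-fold change itself left 1209 genes higher in cDC1s and 997 higher in cDC2s, against 2098 and 1643 past that fold. Whether the replicate numbers pair the samples stayed unsettled. Deviations of cDC1s and cDC2s with the same number correlated at 0.0224, 0.185 and 0.112 across genes, and those with different numbers at -0.16 to 0.0674. The cDC2 replicate 1 was closest to cDC1 replicate 2, whereas cDC2 replicates 2 and 3 were closest to the cDC1 sample of the same number. With the replicate block, 8423 genes were called, and the genes whose subset difference depended on the medium numbered 443 for BimS and 449 for RIPK3, against 166 and 217. DESeq2 gave 261 and 305 such genes, and the cause of these shifts was not tested. Of 240 called genes among the 277 named genes tested, 215 kept their call and direction and 25 lost it under at least 1 of the 17 settings. Only settings in which a gene had an adjusted p were counted, and the stricter filter left some genes out. The lost calls were mostly of small differences, such as those of B2m, Fas, Cd74 and Tlr6, and included S1pr1, whose samples overlapped. Of the named genes not called, 6 gained a call under at least 1 setting, among them Esam, Fcgr3, Cd86 and Irf7. The platelet gene Pf4, not called with all samples, moved from -1.31 to between -1.88 (without cDC2 replicate 1) and 3.57 (without cDC2 replicate 3) when single samples were left out. Depth limits the fold changes of genes near 0 in a subset.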
